A study of Homo sapiens with 10 samples.

Results

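The iron transport and storage genes were followed through the differentiation of H1, an embryonic stem cell line of human origin, towards hepatocyte-like cells. Their members were chosen by gene symbol, as 8 named genes: TF, TFRC, TFR2, FTH1, FTL, HMOX1, CP and HAMP. Of the 12125 genes in the deposited table, 5 were members (TF, TFRC, FTH1, FTL and HMOX1), and TFR2, CP and HAMP were not analysed here. Bulk RNA was sequenced daily from day 0 to day 3, every second day from there to day 13, and at day 21. Every time point is a single library, a group of 1, and there are 10 in all. All libraries came from the same line, which was kept as a monolayer on Matrigel in mTeSR1 before day 0. The day 0 cells had none of the differentiation factors of the protocol, and those of days 1, 2 and 3 had Activin A at 100 ng per ml in RPMI/B27 without insulin. The basal medium thus differs between day 0 and day 1 as well. The cells of days 5 and 7 had BMP2 (20 ng per ml) and FGF4 (30 ng per ml), and those of days 9 and 11 had HGF and KGF at 20 ng per ml each, in RPMI/B27 with insulin. Oncostatin M (OSM) was given at 20 ng per ml in hepatocyte medium up to day 21. The label of the day 13 library gives OSM, whereas the described protocol ends the 6 days of HGF and KGF at day 13, so the medium of that library is uncertain, and the plots shade the steps as the protocol gives them.

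In vertebrates, iron travels in plasma bound to transferrin, the protein of TF, which the liver makes and secretes. Cells take it up through the transferrin receptor (TFRC), and iron that is not needed at once is stored in ferritin, a shell of heavy (FTH1) and light (FTL) chains. HMOX1, heme oxygenase 1, frees iron from heme. Much of this control is exerted on the messenger RNA. Iron regulatory proteins, which sense the iron of the cell, bind stem-loops called iron-responsive elements. Binding before the coding sequence, as in both ferritin genes, holds back translation, and binding after it, as in TFRC, protects the message from decay.

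The elements were searched for in the principal GENCODE release 29 transcripts (GRCh38), on the transcript strand, as a bulged C, 5 bases of any kind, CAGTG and 6 further bases, of which the last 5 had to pair with the 5 that follow the bulge (G-T pairs allowed). They are printed because they carry the control described above. Capitals mark the bulged C and the 6 bases of the loop, and each line is 30 bases of the reference.
FTH1: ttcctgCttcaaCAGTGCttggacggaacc
FTL: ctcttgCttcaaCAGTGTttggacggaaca
TFRC, match 1: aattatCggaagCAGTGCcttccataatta
TFRC, match 2: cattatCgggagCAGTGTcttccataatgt
TFRC, match 3: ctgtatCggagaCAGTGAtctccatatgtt
TFRC, match 4: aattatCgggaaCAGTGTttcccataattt
SLC40A1: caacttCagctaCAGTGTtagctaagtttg

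The FTH1 match lies in the 5′ UTR on the minus strand, at chr11:61967573-61967602, and the FTL match in the 5′ UTR on the plus strand, at chr19:48965335-48965364. The 4 TFRC matches lie in the 3′ UTR on the minus strand of chromosome 3, between 196050462 (match 4) and 196051007 (match 1). SLC40A1, the gene of the iron exporter ferroportin, had 1 match in its 5′ UTR, at chr2:189580660-189580689 on the minus strand. HMOX1 had no match. TF had 1, in the 3′ UTR of a model 20602 bases long, which is not printed. Of 19670 principal transcripts, 240 held the motif (1.22%), 20 of them in the 5′ UTR (0.102%) and 104 in the 3′ UTR (0.529%), and 0.000367% of all windows of 30 bases held it. A match describes these letters and not a measured binding.

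The deposited values are GC-normalized whole numbers and not read counts. Library totals lay within 1.36% of each other, the median value was 81 or 82, and the maximum was 18734 in every library. The depth of a single library is thus unknown. Values of 2164 or more fell into 10 levels that all libraries share, so the highest genes move in coarse steps. Such levels were looked for only from 2100 up. Lower values recurred as well, such as 936 for HEPH at day 9 and NEO1 at day 21. The ratios of any member can thus be moves on a shared scale. Changes are differences of log2(value + 1). With a single library for each day no test was possible, and a change was counted when this difference was at least 2 (4-fold) and the larger value at least 50. As a measure of spread, the standard deviation (SD) of the differences between days 9 and 11, which share a medium, was taken over the 500 genes nearest in level. It was 0.93 at a value of 10, 0.51 at 50, 0.33 at 100 and 0.26 at 1000. Between the ends of the course the markers followed the labelled stages. The summed value of 6 pluripotency genes went from 12133 at day 0 to 98 at day 21, and that of 8 hepatocyte genes from 55 to 70568. In the latter sum, AFP, TTR and SERPINA1 each stood at 18734, the maximum of the scale, at day 21. Within the course single genes moved otherwise, as LIN28A was highest at day 5 and HNF4A at day 7. Other cell types were marked too, since 8 genes of the red blood cell lineage summed to 5, 5741 and 2800 on days 0, 13 and 21, and 7 stromal genes to 756, 37388 and 39613. In bulk RNA, fewer cells of a type and less RNA per cell cannot be told apart.

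Each of the 5 members had its own course. TF was at or near 0 until day 7 and highest at day 21, TFRC was highest at day 3, HMOX1 at day 7, FTL at days 7 and 9, and FTH1 at day 0. By rank among the 12125 genes, FTL stayed between the places 17 and 58 and FTH1 between 70 and 242. TFRC lay between 152 and 1962, HMOX1 between 720 and 9828, and TF between 32 and 11874. The ferritin genes thus had some of the highest values of every library, whereas TF and HMOX1 covered most of the range.

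**Figure D1:**
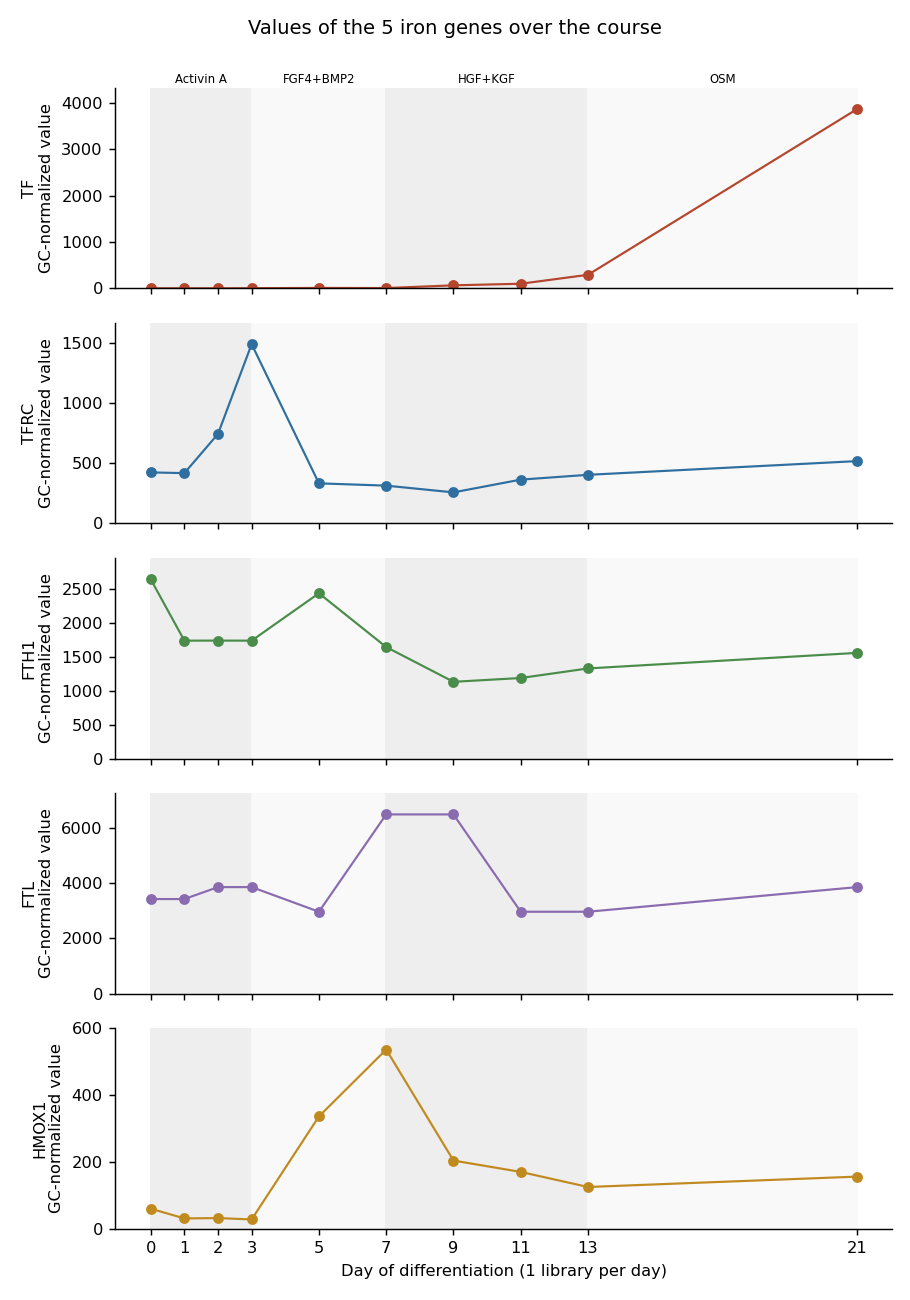
GC-normalized value of each member (y axis, own scale from 0 in each panel) against the day of differentiation (x axis), 1 point per library, with the factor of each protocol step shaded. TF stands at 3865 at day 21 against at most 291 before, TFRC at 1490 at day 3, and HMOX1 at 536 at day 7.

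TF, transferrin (ENSG00000091513), lies on the plus strand of chromosome 3, between 133464800 and 133497850 as the table lists it. The table names no build, and the submitters' processing notes list hg19 and mm10 without a role. The matches of FTH1, FTL, TFRC and TF, placed on GRCh38, lie outside the spans listed for these genes, so the listed spans are on another build. TF was listed at 0 in the first 3 libraries (days 0, 1 and 2) and had values of 2, 8 and 5 on days 3, 5 and 7. It then had 64, 98 and 291 on days 9, 11 and 13 and 3865 at day 21. The values thus fall into 2 ranges, at most 8 up to day 7 and at least 64 from day 9 on. The ratio was 12.8 from day 7 to day 9, 1.53 from day 9 to day 11, 2.97 from day 11 to day 13 and 13.3 from day 13 to day 21. The value of day 21 lies in level 4 of the shared top levels, so the last ratio rests on a place on the scale. On the log2 scale TF was 5.60 higher at day 13 than at day 7 and 3.73 higher at day 21 than at day 13, against SDs of 0.44 and 0.26 for genes of the same level. The order of days 9, 11, 13 and 21 exceeded that spread at each place, and the order of days 5, 7 and 3 did not.

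The genes of secreted liver proteins fell into earlier and later ones, and TF was among the later. AFP, the fetal plasma carrier, was at 342 on day 5 and reached the largest value of the table, 18734, by day 7, where it stayed, and TTR, the carrier of thyroid hormone and retinol-binding protein, was at 3430 on day 7 and at that maximum from day 9 on. At day 7, when TF was at 5, FGB, a fibrinogen chain, was at 4866 and APOA1, the main protein of high-density lipoprotein, at 4855. SERPINA1, alpha-1 antitrypsin, had 56, 704, 2640 and 18734 on days 7, 9, 13 and 21. ALB, albumin, had 65, 72, 168 and 4866 on the same days, and HPX, the heme carrier hemopexin, 70, 168, 348 and 2798. TF, ALB and HPX were at 1000 or more in the day 21 library and in no other. FGG, another fibrinogen chain, was as late, with 34, 43, 66 and 1327 on those days, and so was A2M, a protease inhibitor, with 12, 56, 120 and 4858. HP, haptoglobin, was later still, with 16, 6, 4 and 74. Over the 10 libraries, the Pearson correlation of log2(value + 1) with TF was 0.97 for SERPINA1, 0.92 for HPX, 0.91 for ALB, 0.85 for TTR and 0.82 for AFP, a description of libraries that share a course. AFP and TTR cannot go above the maximum, so their order at days 9 to 21 is not known.

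**Figure D2:**
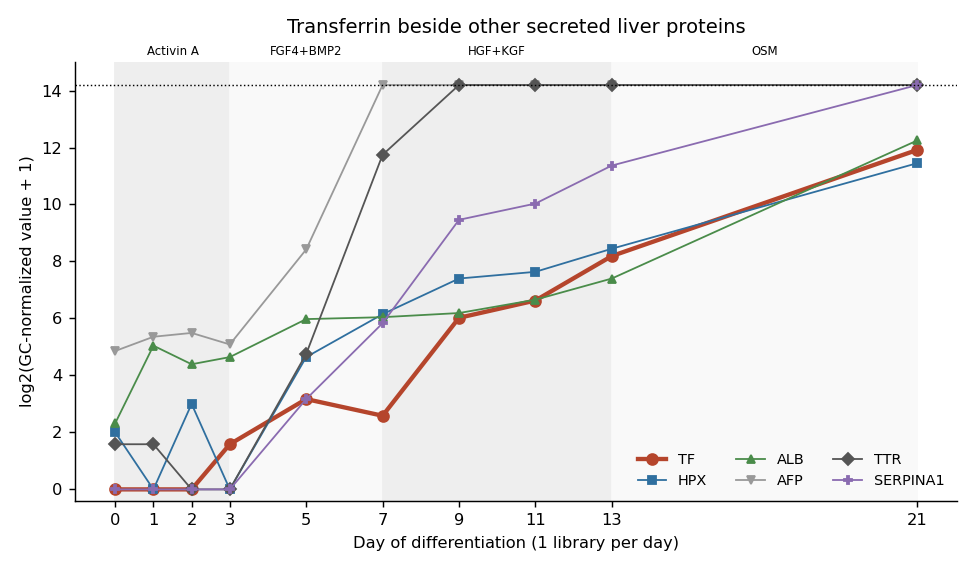
log2(GC-normalized value + 1) of TF and 5 other genes of secreted liver proteins (y axis) against the day of differentiation (x axis), 1 point per library, with the maximum of the scale, 18734, as a dotted line. TF lies below the other 5 at day 7 and beside ALB and HPX at days 11, 13 and 21.

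Of the 4323 genes that ranged over at least 4-fold and reached a value of 50, those most like TF over the 10 libraries were ADAMTS2 (Pearson r = 0.99), SSFA2 (0.99) and DRAM1 (0.98). ADAMTS2, an enzyme that trims procollagen, had values of 13, 32, 112 and 402 on days 0, 7, 13 and 21. SSFA2 had 70, 168, 388 and 676 on these days, and DRAM1, a lysosomal membrane protein, 14, 20, 123 and 182. Their ranges were much narrower than that of TF, and by Spearman correlation they took places 1, 14 and 24.

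TFRC, the transferrin receptor (ENSG00000072274), lies on the minus strand of chromosome 3, between 195754054 and 195782085. It had values of 424 in the stem cells and of 418, 744 and 1490 on days 1, 2 and 3. Under BMP2 and FGF4 the values were 333 (day 5) and 314 (day 7). Later ones were 258, 364 and 404 on days 9, 11 and 13 and 518 on day 21. TFRC was thus high at days 2 and 3 and between 258 and 518 in the other 8 libraries. The ratio was 1.78 from day 1 to day 2 and 2.00 from day 2 to day 3, and the value at day 3 was 4.47 times that at day 5. On the log2 scale TFRC was 1.81 higher at day 3 than at day 0, below the 4-fold limit, and 2.24 lower at day 7 than at day 3, against SDs of 0.28 and 0.29. From day 7 to day 13 it was 0.36 higher, and 0.36 higher again from day 13 to day 21, differences that 11.2% and 11.4% of the 500 genes of the same level reached between days 9 and 11. Day 3, day 2 and day 21 each stood above the next day in the order by more than the SD, as day 7 did above day 9, but days 0, 1, 13, 11 and 5 did not.

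Cells of the red blood cell lineage take up much iron through this receptor. Their 8 markers summed to 8 at day 3, with 4 of them listed at 0, when TFRC was highest. They summed to 163, 1069 and 5741 at days 9, 11 and 13, when TFRC had 258, 364 and 404. The part of these cells in the values of TFRC was not tested on any day. The genes most like TFRC were TNFAIP8 (r = 0.93), PRKCH (0.93), a protein kinase C, and CELF2 (0.91), an RNA-binding protein. TNFAIP8 had 40, 120 and 26 on days 0, 3 and 5, PRKCH 26, 60 and 16, and CELF2 78, 258 and 78. Each of these, like TFRC, was higher at day 3 than at any other day, and by Spearman correlation they took places 26, 6 and 68.

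FTH1, the ferritin heavy chain, which carries the ferroxidase activity (ENSG00000167996), lies on the minus strand of chromosome 11, between 61727190 and 61735103. It had values of 2640 in the stem cells, 1736, 1737 and 1736 on days 1, 2 and 3, and 2434 and 1642 on days 5 and 7. Afterwards the values were 1130, 1186 and 1327 on days 9, 11 and 13 and 1556 on day 21. FTH1 was highest in the stem cells and at day 5 and lowest at day 9, with a whole range of 1.22 on the log2 scale. Its values of days 0 and 5 lie in levels 8 and 9 of the shared top levels. Those of days 1, 2 and 3 are close to values of other genes, such as PRDX1 (1734 on days 0 and 1). Such values can be places on the scale and not equal amounts of RNA. FTH1 was 0.60 lower at day 3 than at day 0 and 0.76 lower at day 21 than at day 0, against an SD of 0.30 in both cases. Its changes over the steps between day 3 and day 21 were at most 0.31 in size. Only 1 of the 9 neighbouring pairs in the order of its days, day 5 above day 2, differed by more than the SD.

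FTL, the ferritin light chain (ENSG00000087086), lies on the plus strand of chromosome 19, between 49468765 and 49470038. It had values of 3428 on both of days 0 and 1, 3860 and 3861 on days 2 and 3, and 2968 on day 5. The values were 6494 and 6493 on days 7 and 9, 2968 on both of days 11 and 13, and 3860 on day 21. FTL was thus high at days 7 and 9 and between 2968 and 3861 in the other 8 libraries. All of its values lie in the shared top levels, with the second level from the top at days 7 and 9, the fourth at days 2, 3 and 21, the fifth at days 0 and 1 and the sixth at days 5, 11 and 13, so equal values are places on the scale and not equal amounts of RNA. On the log2 scale FTL was 0.75 higher at day 7 than at day 3 and 1.13 lower at day 13 than at day 7, against an SD of 0.30. The 2 libraries that share HGF and KGF on days 9 and 11 also differed by 1.13, and 0.568% of all genes tested were at least 2-fold lower between them. GENCODE release 29 names 25 pseudogenes of FTH1 and 16 of FTL, and reads of such near-identical copies can be split or shared, so the levels of both ferritin genes are uncertain.

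Set within each library, FTL was higher than FTH1 in value on all 10 days, and their ratio moved. As FTL moves in the coarse steps of the top levels, so does this ratio. The ratio of the FTL to the FTH1 value, without correction for length, was 1.30, 2.22 and 1.22 on days 0, 3 and 5, 3.95 and 5.75 on days 7 and 9, and 2.50 and 2.48 on days 11 and 21. That of TFRC to FTH1 was 0.161, 0.858 and 0.137 on days 0, 3 and 5, and 0.304 and 0.333 on days 13 and 21. The receptor thus stood highest against the heavy chain at the end of the Activin A step. Per kilobase of the principal transcript, FTL had a level of 3904 at day 0 and 4396 at day 21, FTH1 of 2148 and 1266, TFRC of 83.0 and 101 and HMOX1 of 32.9 and 85.6. HMOX1 was above TFRC per kilobase at days 5, 7, 9 and 11, with 294 against 61.4 at day 7, and below it on the other days. Whether the deposited scores already carry a correction for length is not known, so this order of genes is uncertain. TF was left out of this comparison because of the length of its model.

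**Figure D3:**
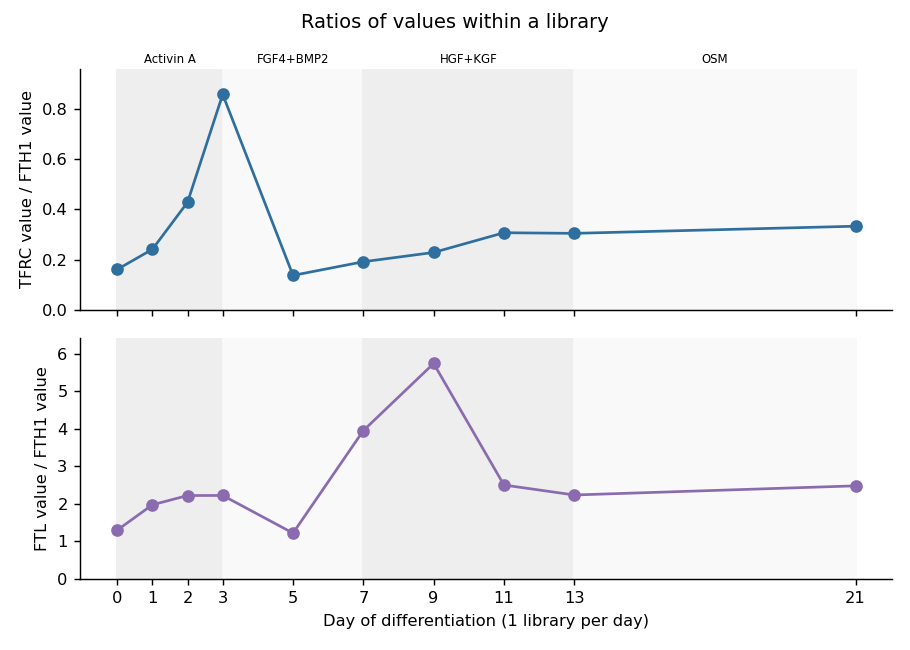
Ratio of the TFRC to the FTH1 value (upper panel) and of the FTL to the FTH1 value (lower panel) in each library, uncorrected for length, against the day of differentiation, with both y axes from 0 and the factor of each protocol step shaded. The upper ratio is highest at day 3 (0.858) and the lower at day 9 (5.75).

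HMOX1, heme oxygenase 1 (ENSG00000100292), lies on the plus strand of chromosome 22, between 35776354 and 35783094. It had values of 60, 31, 32 and 28 on days 0, 1, 2 and 3. Under BMP2 and FGF4 the values were 336 (day 5) and 536 (day 7). Later ones were 204, 170 and 125 on days 9, 11 and 13 and 156 on day 21. The 4 libraries up to day 3 were at most at 60, and the 6 later ones at least at 125. The log2 difference was 3.54 from day 3 to day 5 and 0.67 from day 5 to day 7, and the value at day 7 was 2.63 times that at day 9. On the log2 scale HMOX1 was 1.07 lower at day 3 than at day 0 (SD 0.44), 4.21 higher at day 7 than at day 3 (SD 0.30) and 2.09 lower at day 13 than at day 7 (SD 0.26). At day 21 it was 0.32 above day 13, less than the SD of 0.35. Days 9, 11, 21 and 13 followed each other in this order by less than the SD.

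HMOX1 is also strongly expressed in macrophages, which recycle heme. Of 10 macrophage markers, 3 were found (CD68, PTPRC and LYZ), and they summed to 45 at day 5 and 13 at day 7, with PTPRC listed at 0 on both days, when HMOX1 was highest. They summed to 525 at day 21, when HMOX1 had 156. In the stem cells of day 0, PTPRC had 39 and LYZ 18, so these markers are not specific here. The part of macrophages in the values of HMOX1 was not tested on any day. HMOX2, the constitutive heme oxygenase, lay between 66 and 128 over the whole course. The genes most like HMOX1 were CLCN5 (r = 0.99), an endosomal chloride transporter, PPAP2B (0.96), a lipid phosphatase, and DENND1C (0.96). CLCN5 had 28, 239, 282 and 86 on days 3, 5, 7 and 13, and PPAP2B 25, 508, 734 and 141. DENND1C moved less, with 40, 78, 134 and 66. Their places by Spearman correlation were 3, 6 and 28.

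Counted over the protocol steps, 1 or 2 of the members passed the 4-fold limit in every step but the first. From day 0 to day 3, 0 of 4 members with a large enough value were at least 4-fold higher and 0 lower, where 3.94% of all genes tested were higher and 2.16% lower. At a limit of 2-fold, TFRC was higher and HMOX1 lower in this step, against 11.1% and 9.07% of all genes, and with day 2 in place of day 3 neither passed it (0.81 and -0.89). From day 3 to day 7, HMOX1 was higher and TFRC lower, 1 of 4 each, against 5.63% and 4.41% of all genes. From day 7 to day 13, TF was higher and HMOX1 lower, 1 of 5 each, against 3.08% and 2.46%, and at 2-fold FTL was lower too, against 8.21% of all genes. With day 11 in place of day 13, whose medium is uncertain, HMOX1 was 1.65 lower on the log2 scale and no longer past the 4-fold limit, and TF was 4.04 higher. From day 13 to day 21, TF was higher, 1 of 5, and 0 were lower, against 2.28% and 1.62%. Between the ends of the course, days 0 and 21, TF was again the 1 member counted as higher, from being listed at 0, and 0 were lower, against 11.9% and 11.5% of all genes. HMOX1 was higher at 2-fold as well, against 23.9%. At these ends TFRC (424 and 518) and FTL (3428 and 3860) stood close together, so that most of what these members did over the course is not seen in the comparison of its ends. The median change of the members with a large enough value was -0.22, 0.33, -0.31 and 0.36 in the 4 steps, and that of all genes tested -0.06, -0.04, -0.05 and -0.05.

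**Figure D4:**
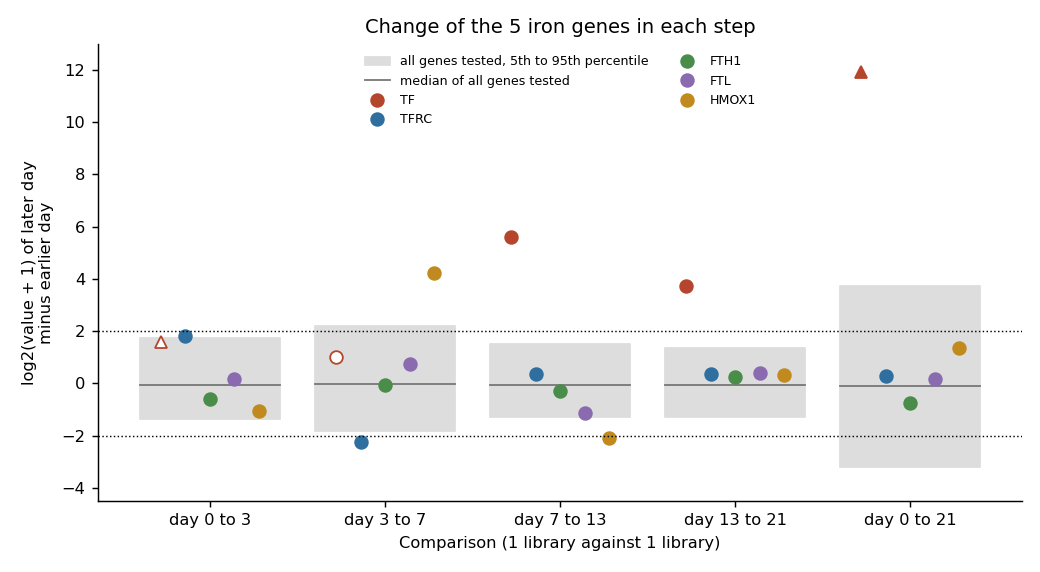
Difference of log2(value + 1), later minus earlier day (y axis), of each member in 5 comparisons of 1 library with 1 library (x axis). Grey boxes span the 5th to 95th percentile of all genes tested, dotted lines mark 4-fold, open symbols have no value of 50 or more, and triangles mark TF where it is listed at 0 on the earlier day. TFRC at 1.81 (day 0 to day 3) and HMOX1 at 4.21 (day 3 to day 7) lie above the grey boxes. So does TF at 5.60 (day 7 to day 13), 3.73 (day 13 to day 21) and 11.9 (day 0 to day 21). TFRC at -2.24 (day 3 to day 7) and HMOX1 at -2.09 (day 7 to day 13) lie below them.

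Of 68 other genes of iron and heme handling in a list drawn up for this comparison, 58 were in the table. The list was chosen with earlier results of these data known, and it holds liver genes such as HP, HPX and CEBPA. Its counts beside those of all genes are thus a description and not a test. From day 0 to day 3, 4 of 44 with a large enough value were at least 4-fold higher and 0 lower, where 3.94% and 2.16% of all genes were. From day 3 to day 7, 9 of 51 were higher and 0 lower, against 5.63% and 4.41%. From day 7 to day 13, 1 of 52 was higher and 3 lower, against 3.08% and 2.46%, and from day 13 to day 21, 2 of 51 were higher and 0 lower, against 2.28% and 1.62%. Between days 0 and 21, 15 of 52 were higher and 0 lower, against 11.9% and 11.5%. The median change of the list was -0.02, 0.12, 0.15 and -0.01 in the 4 steps and 0.44 between the ends, where that of all genes tested was -0.11.

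Of the genes that move iron in and out of cells, SLC40A1, the exporter, had 1, 0, 22 and 146 on days 0, 1, 2 and 3, and 134, 444 and 453 on days 7, 13 and 21. It thus appeared in the same libraries in which TFRC was highest and stayed when TFRC was low again. HEPH, a membrane ferroxidase that works with the exporter, had 320, 239, 462, 936 and 2023 on days 0, 3, 7, 13 and 21. LRP2 and CUBN, endocytic receptors of epithelia that can take up transferrin among many ligands, were at 4 and 6 at day 3 and at 1488 and 642 at day 7, and LRP2 was at 155 and CUBN at 659 at day 13. STEAP1 (14 and 70) and STEAP2 (15 and 99), relatives of the endosomal ferrireductase, were also at least 4-fold higher at day 7 than at day 3. SLC11A2, the transporter that carries iron out of the endosome, stayed between 144 and 262. STEAP3, the ferrireductase of the transferrin cycle, stayed between 38 and 116, so these partners of TFRC did not share its high value at day 3.

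Among the scavengers of heme and hemoglobin, HPX was at least 4-fold higher in each of the steps from day 3 on, and HP, haptoglobin, was at most 26 up to day 13 and at 74 at day 21. Of the regulators of hepcidin, the liver hormone of iron encoded by HAMP, BMP6 had 1, 456, 400, 98 and 4 on days 3, 5, 7, 9 and 13. BMP2, whose protein is also in the medium of days 5 and 7, had 3, 343, 450 and 684 on days 0, 2, 3 and 5. ID1, a target of BMP signalling, had 128, 324, 619 and 504 on days 0, 1, 2 and 3, before BMP2 was added, and then 872, 628 and 91 on days 5, 7 and 13. TMPRSS6, the protease that curbs hepcidin, had at most 3 up to day 5, 54 at day 13 and 140 at day 21, and IL6ST, the signalling chain shared by the receptors of interleukin 6 and OSM, had 82, 805 and 2638 on days 3, 7 and 21. CEBPA, a liver transcription factor, had 3, 67 and 266 on days 3, 7 and 13.

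The RNA values of the genes that read out cellular iron moved little, and the activity of their proteins was not measured. ACO1, which encodes iron regulatory protein 1, stayed between 181 and 309, IREB2, the gene of iron regulatory protein 2, between 232 and 322, and FBXL5, whose product marks the latter for breakdown, between 82 and 172. In this group 0 of 3 passed the 4-fold limit in any step. NCOA4, the receptor that brings ferritin to the lysosome, was highest at day 5 (1158) and between 247 and 501 in the other libraries. Among the 8 genes of heme synthesis listed, ALAD was counted once, with 44 at day 0 and 258 at day 3, and among the 8 of mitochondrial iron and the 5 of heme breakdown and export 0 were counted in any step.

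**Figure D5:**
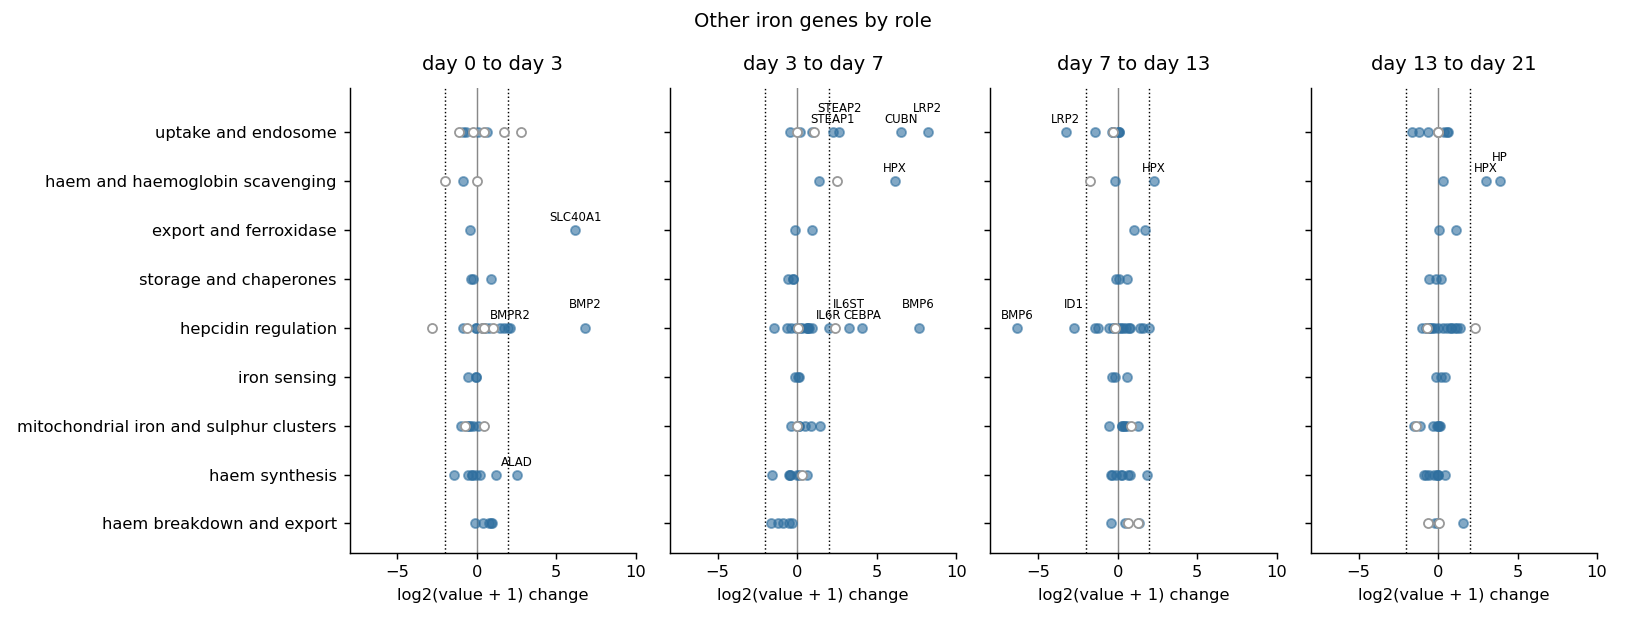
Difference of log2(value + 1), later minus earlier day (x axis), of 58 other iron and heme genes by role (y axis) in the 4 protocol steps, 1 point per gene. Dotted lines mark 4-fold, open points have no value of 50 or more, and the genes past the limit are named, such as SLC40A1 (6.20, day 0 to day 3) and BMP6 (7.65, day 3 to day 7, and -6.33, day 7 to day 13).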

How the data were processed

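RNA of 10 days of 1 differentiation course was sequenced by the authors on a MiSeq. Alignment used Bowtie2 (version 2.2.0) and quantification RSEM (version 1.2.17), on Ensembl release 76. The methods name the mouse build with that release, although identifiers and symbols in the table are human. EDASeq (version 2.0.0) removed the effect of GC content. The values the authors deposited are scores, not read counts. The methods give an average sequencing depth over the samples, but no depth of a single library or counting interval can be given. Columns were matched to samples by the day in their name and in the sample title. Members and gene lists were chosen with earlier results of these data known.

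Differences of log2(value + 1) were computed with Python 3.11.15, numpy 2.4.6 and pandas 2.3.3, and plots with matplotlib 3.10.9. Likeness was the Pearson correlation over the 10 libraries, and the 3 genes most like each member with a range of at least 2 on the log2 scale were named, which leaves out FTH1 and FTL. Other genes named are those of the lists, mainly those past 4-fold in a step. Alternatives were other pseudocounts, scalings, value limits and neighbouring days. The counting of changed genes was run on simulated counts with planted changes well past the limit, which checks the code and not the spread of these data. All 10 columns of values were used, and all recomputed results rest on single libraries.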

Additional observations from a re-analysis of the deposited data

How the results depend on the processing

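No paired analysis was possible because each day is 1 library and the labels carry no replicate numbers. Of 145 recomputed changes of members, 141 kept their sign, and 24 moved by more than 1 SD. TF was listed at 0 on both days with day 2 in place of day 3, a change of 0. The other 3 were below 2-fold: with day 5 in place of day 7, FTH1 was 0.49 above and FTL 0.38 below day 3, and HMOX1 at day 21 was 0.12 below day 11. The 4-fold counts of members were equal to the reported ones under pseudocounts of 0.1 and 5, both scalings and limits of 0 and 200 on the larger value. A neighbouring day ended calls: with day 11 in place of day 13, HMOX1 was 1.65 below day 7 and not past 4-fold, and with day 2 in place of day 3, TFRC (0.81) and HMOX1 (-0.89) were not past 2-fold. At 2-fold, the members counted were 1 higher (TFRC) and 1 lower (HMOX1) from day 0 to day 3, 2 lower (FTL and HMOX1) from day 7 to day 13 and 2 higher (TF and HMOX1) between the ends.

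For the other iron genes, the 2-fold limit, which by its construction admits more genes, gave 8 higher and 2 lower from day 0 to day 3, 11 higher and 4 lower from day 3 to day 7, 9 higher and 6 lower from day 7 to day 13, 7 higher and 5 lower from day 13 to day 21, and 18 higher and 5 lower between the ends. Of all genes, 8.57% to 13.2% were higher and 8.21% to 12.8% lower in the 4 steps at this limit, and 23.9% and 26.4% between the ends. Without a value limit 2 (HPX and BMP6) were lower from day 0 to day 3. With a limit of 200, which leaves fewer genes, 4 were higher from day 3 to day 7 and 1 from day 13 to day 21. Scaling by the median of ratios gave 2 higher from day 7 to day 13 (HPX and CEBPA). That scaling also moved the median change of all genes between days 0 and 21 from -0.11 to 0.06. Between days 9 and 11, genes at a value of 50 had an SD of 0.51 on the log2 scale and genes at 10 one of 0.93, which limits what low values show. CELF2 had a Spearman correlation of 0.78 with TFRC, against a Pearson r of 0.91. The use of day 5 and of ranks was chosen after seeing the data.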

Other observations

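Other gene groups that touch the members were followed as values. Acute phase genes, which the liver makes in inflammation under cytokines of the interleukin 6 and OSM family, were represented by 8 of 17 listed genes. From day 13 to day 21, 4 of the 8 were at least 4-fold higher and 0 lower, where 2.28% and 1.62% of all genes were. The higher ones were A2M, a protease inhibitor (120 and 4858), FGG, a fibrinogen chain (66 and 1327), and the complement genes C3 (18 and 299) and CFB (35 and 210). The medium of day 13 is uncertain, and medium and time in culture cannot be told apart in this step. The part of OSM was not tested. ITIH4, of the same list, went the other way, from 111 to 40. TF, whose protein is known to fall in plasma during inflammation, went from 291 to 3865 in the same step. FGA and FGB, the other fibrinogen chains, were already at 1554 and 4866 at day 7. From day 13 to day 21, FGA went from 3428 to 2796 and FGB from 3868 to 3438. SOCS3, a feedback inhibitor of these cytokines, went from 102 to 184 in that step and had its highest value, 342, at day 5.

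HMOX1 is also a target of the stress factor NRF2, and 10 of 12 listed targets of this factor were in the table. From day 3 to day 7, when HMOX1 went from 28 to 536, 1 of 10 was at least 4-fold higher (ABCC2, a transporter of bile, 5 and 178) and 0 lower, where 5.63% and 4.41% of all genes were, and the median change of the 10 was -0.04, as it was over all genes tested (-0.04). GCLM (102 and 98), TXNRD1 (557 and 545) and SLC7A11 (154 and 118) moved by less than 2-fold. The part of NRF2 in the course of HMOX1 was not tested. NQO1 was at 291 at day 11, 78 at day 13 and 16 at day 21.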
